A study of Mus musculus with 6 samples.

Results

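*Neat1* and *Malat1*, a pair of long nuclear RNAs, and 4 genes for proteins of the paraspeckle (*Nono*, *Sfpq*, *Pspc1* and *Rbm14*) were measured in primary murine hepatocytes overexpressing *Aloxe3*. These 6 genes were matched by symbol among the 41388 genes of the table. They were chosen on values of these libraries, so their levels and differences are given as a description with no p-value. Counts of them past a threshold are stated, but nothing is read from those counts. RNA came from hepatocytes of C57BL/6J mice freed by collagenase, kept overnight in growth medium and then exposed to adenovirus for 24 h, at about 1000000 viral particles per 1000000 cells. The 3 control libraries (replicates 1, 2 and 3) came from cells given virus that encodes the bacterial enzyme β-galactosidase (β-gal), and the other 3 (replicates 7, 8 and 9) from cells given virus that encodes ALOXE3. All 6 share the virus backbone, the medium and the time, and there was no culture without virus. ALOXE3 is a lipoxygenase best known from the epidermis that rearranges fatty acid hydroperoxides.

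Paraspeckles are bodies between the chromatin that form around *Neat1*. The gene makes a short RNA that ends at an ordinary poly(A) signal and a long RNA that reads through it, and the long RNA is the scaffold without which the body does not form. NONO, SFPQ and PSPC1, related RNA-binding proteins that work as dimers, coat the long RNA, while RBM14 helps to join the coated units into a body. *Malat1*, the neighbour of *Neat1*, is a very abundant RNA of the nuclear speckles, where splicing factors are stored. The long *Neat1* RNA and *Malat1* are cut by RNase P at a tRNA-like structure, and a triple helix of A-rich and U-rich stretches protects the end in place of a poly(A) tail.

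Both genes lie on the minus strand of chromosome 19 in GRCm38, *Malat1* (ENSMUSG00000092341) at chr19:5795690-5802672 and *Neat1* (ENSMUSG00000092274) at chr19:5824708-5845478, with 22035 bases between them. The ends of the RNAs are shown because the libraries were made from RNA caught on oligo(dT) beads, and these ends differ in what such beads can bind. The letters are from GENCODE M21 transcripts, and the position of Mascrna, the tRNA-like piece cut from *Malat1*, is that of RefSeq for GRCm38.p6. Each sequence reads 5′ to 3′ on the minus strand. The first lies at chr19:5795982-5796071 and ends just before Mascrna, and the second, at chr19:5824708-5824797, is the annotated end of the long *Neat1* RNA. Capitals mark the longest stretch that these 90-base ends share (16 bases) and the shared final 11 bases.
Malat1 end: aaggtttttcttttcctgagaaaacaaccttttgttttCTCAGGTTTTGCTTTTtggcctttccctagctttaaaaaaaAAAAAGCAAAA
Long Neat1 end: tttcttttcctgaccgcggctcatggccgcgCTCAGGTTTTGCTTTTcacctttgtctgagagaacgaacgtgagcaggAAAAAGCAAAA

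The marked stretch, U-rich in its later part, is thus the same 16 letters in both RNAs, and both end in a run of A encoded in the genome. Another U-rich stretch, left unmarked, lies further upstream in each end. *Malat1* carries its longest run of A, 12 bases, 6 bases before the cut. The longest run in the whole long *Neat1* RNA is 7. The piece released from *Malat1* follows directly (58 bases, chr19:5795924-5795981).
Mascrna: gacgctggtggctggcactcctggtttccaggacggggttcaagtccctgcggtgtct

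The short *Neat1* RNA (3004 bases after splicing) ends differently, and so does the full annotated *Malat1* RNA, which extends 234 bases past Mascrna. Their last 60 bases are shown with the poly(A) signal AATAAA in capitals, at chr19:5842307-5842366 and chr19:5795690-5795749.
Short Neat1 end: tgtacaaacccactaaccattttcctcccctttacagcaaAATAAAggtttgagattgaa
Annotated Malat1 end: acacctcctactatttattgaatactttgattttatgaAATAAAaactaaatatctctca

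The signal starts 20 bases before the end of the short *Neat1* RNA and 22 before that of annotated *Malat1*. In the long *Neat1* RNA the last AATAAA starts 2077 bases before the end. The first transcripts of *Pspc1*, *Rbm14* and *Sfpq* hold AATAAA 20, 22 and 27 bases before their ends, and that of *Nono* the variant ATTAAA at 26. Oligo(dT) beads can hold the tailed RNAs by their tails and the cut RNAs only by the encoded A-rich stretches, so the *Neat1* and *Malat1* values are those of what this selection kept. Which *Neat1* RNA the reads came from was not tested, since the table gives 1 value a gene.

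The table gives RPKM, which scale the reads of a gene to its exon length and to the size of the library and so are a level per length. The libraries held 25521908 to 32431318 reads, and *Aloxe3* was at 1.95 ± 0.178 RPKM (SD, n = 3) with β-gal and 48.1 ± 7.32 (n = 3) with the *Aloxe3* virus. The exact permutation test of 3 against 3 gave its smallest possible two-sided p, 0.1. Of the 12693 genes tested (mean over the libraries of 0.5 RPKM or more), 50 passed an adjusted p of 0.05 in limma (0.394%), 45 of them higher with *Aloxe3* (0.355%). *Alb*, the defining hepatocyte gene, was at 4362 to 4552 RPKM in every library, and the summed hepatocyte markers were at 5229 to 5257 RPKM with β-gal and 5033 to 5200 with *Aloxe3*, most of it *Alb*. *Apoa1*, *Apob*, *Ttr*, *Serpina1a*, *Hnf4a* and *Fah* of that list were at 21.9 RPKM or more in every library, while *Asgr1*, *Cps1*, *Tat*, *Cyp2e1* and *Cyp3a11* were at 2.86 or less. The 5 leukocyte markers summed to at most 0.469 RPKM and the 8 stellate cell markers to at most 4.04, with the stellate marker *Lrat* listed at 0 throughout. *Col1a1* (2.09 to 2.53 RPKM) and *Dcn* (0.909 to 1.35) led the stellate sum. *Cdh5* led the endothelial sum of 36.7 to 42.3, and *Spp1* made up most of the cholangiocyte sum of 1509 to 1716. Of the other cholangiocyte markers, *Krt19* was at 32.9 to 51.0 RPKM and *Sox9* at 38.3 to 49.3, while *Krt7* and *Epcam* stayed at or under 0.456. The Kupffer cell sum was lower with *Aloxe3* (133 to 146 RPKM against 151 to 155), nearly all of it *Cd68*. *Adgre1*, *Csf1r*, *Marco* and *Cd5l* lay between 0.355 and 1.99 RPKM with overlapping groups, while *Clec4f*, *Vsig4* and *Timd4* stayed at or under 0.102. In bulk RNA, fewer cells of a type and less RNA per cell cannot be told apart. Replicate 9 of *Aloxe3* stood apart, with 3.70% of its reads on the mitochondrial genes that had values against 2.76% to 2.98% in the others, so the differences of the 6 genes are also given without it, and those of some other genes that it moved. Nothing in the labels says that replicates came from separate animals, so the spread may be technical.

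*Neat1* was the member with the largest difference. Its level was 22.3, 20.3 and 23.8 RPKM in β-gal replicates 1, 2 and 3, and 31.5, 34.1 and 34.5 RPKM in *Aloxe3* replicates 7, 8 and 9. The groups did not overlap: the lowest *Aloxe3* library lay 7.72 RPKM above the highest control. The means were 22.2 ± 1.72 and 33.4 ± 1.65 RPKM (SD, n = 3 each), a ratio of 1.51, and the log2 difference on log2(RPKM + 1) was 0.57 ± 0.062 (SE). Without replicate 9 the difference was 0.55.

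These levels rest on 13708 to 21559 reads a library. Counting alone gives a coefficient of variation of 0.833% with β-gal and 0.724% with *Aloxe3*, while the replicates varied by 7.76% and 4.95%. What made up the rest of the spread was not tested. The RPKM divide by the 20771 bases of the long RNA. If every read came from the short RNA, the same reads over 3004 bases would give 153 ± 11.9 RPKM with β-gal and 231 ± 11.4 with *Aloxe3* (SD, n = 3 each). The level thus moves 6.91-fold with the length taken, while the ratio between the groups stays the same if both groups hold the 2 forms in like shares, which was not tested.

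*Malat1* was the most abundant of the 6 and rank 67 of the 12693 genes by mean RPKM. The β-gal libraries held 445, 497 and 528 RPKM and the *Aloxe3* libraries 532, 592 and 636. The groups did not overlap, but only 3.67 RPKM parted the lowest *Aloxe3* library from the highest control. With means of 490 ± 41.9 and 587 ± 52.4 RPKM (SD, n = 3 each), the ratio was 1.20 and the log2 difference 0.26 ± 0.082 (SE), or 0.20 without replicate 9. *Malat1* took 0.311% to 0.369% of all reads with β-gal and 0.371% to 0.444% with *Aloxe3*. Its replicates varied by 8.56% and 8.93%, against 0.305% and 0.298% from counting.

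Set against its neighbour in the same library, *Neat1* was at 5.02, 4.10 and 4.50 RPKM per 100 RPKM of *Malat1* in the controls and at 5.92, 5.76 and 5.43 with *Aloxe3*. These ranges did not overlap either, so the *Neat1* level was higher relative to *Malat1* as well as to all reads.

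The core dimer proteins differed far less. *Nono* was at 33.9, 36.1 and 36.8 RPKM with β-gal and 36.3, 39.7 and 38.4 with *Aloxe3*. The groups overlapped, since replicate 7 lay below β-gal replicate 3, and the means of 35.6 ± 1.54 and 38.2 ± 1.71 RPKM (n = 3 each) gave a log2 difference of 0.10 ± 0.048 (SE), or 0.09 without replicate 9 and 0.06 without β-gal replicate 1.

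*Sfpq*, the dimer partner with the highest level, was at 86.9, 83.8 and 84.2 RPKM with β-gal and at 85.8, 84.9 and 101 with *Aloxe3*. Only replicate 9 lay above the controls. The log2 difference of 0.09 ± 0.066 (SE) came to 0.01 without that library, whose mitochondrial share was also the highest. Whether the 2 go together was not tested.

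*Pspc1*, the third of these relatives, was the lowest of the 6, at 5.39, 5.34 and 5.21 RPKM with β-gal and 5.22, 5.70 and 5.74 with *Aloxe3*. Replicate 7 lay within the controls and replicates 8 and 9 above them. The log2 difference was 0.05 ± 0.047 (SE), and 0.03 without replicate 9 or 0.09 without replicate 7. The replicate spread with β-gal, 1.72%, was below the 3.87% that counting gives for the smallest read number the values allow. The 3 dimer genes together summed to 125 to 126 RPKM in the controls and 127, 130 and 145 in the *Aloxe3* replicates, and *Sfpq* made up 65.1% to 69.6% of the sum in every library.

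*Rbm14*, which bridges the coated units, was at 12.5, 13.1 and 13.6 RPKM with β-gal and at 13.5, 13.4 and 15.3 with *Aloxe3*. As with *Sfpq*, only replicate 9 lay above all controls. The log2 difference was 0.10 ± 0.058 (SE) and 0.04 without that library.

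**Figure D1:**
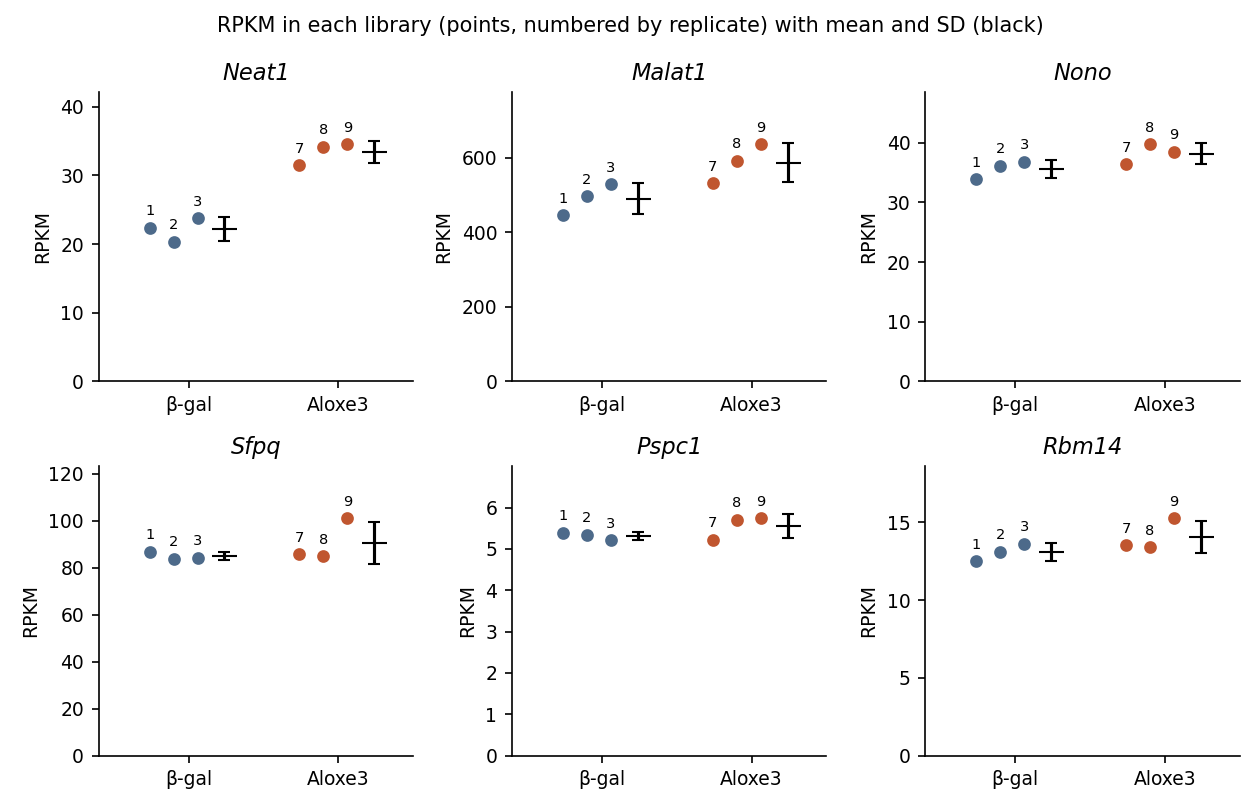
RPKM of the 6 genes (y axis, from 0) in the β-gal and *Aloxe3* libraries (points with replicate numbers), with mean and SD of 3 libraries beside them. The groups part for *Neat1* (20.3 to 23.8 against 31.5 to 34.5) and, narrowly, for *Malat1*, and overlap for the 4 protein genes.

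All 6 genes passed the filter on low values and all 6 had a higher mean with *Aloxe3*. By the adjusted limma threshold 1 of the 6, *Neat1*, was called, beside the 0.355% of all genes called higher, and it was not called when any 1 library other than β-gal replicate 3 was left out. The groups did not overlap for 2 of the 6, *Neat1* and *Malat1*, beside 19.9% of all genes in either direction and 11.2% with *Aloxe3* higher. The contrast served to choose the genes, so nothing is read from these counts. The median log2 difference of the 6 was 0.10, and that of all genes 0.0049.

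Per length, the order of the levels was *Malat1*, *Sfpq*, *Nono*, *Neat1*, *Rbm14*, *Pspc1* in both groups, and no neighbours in it overlapped within a group. *Nono* was 1.61 times *Neat1* by mean RPKM with β-gal and 1.14 times with *Aloxe3*, where the lowest *Nono* library, at 36.3 RPKM, stood close above the highest *Neat1* library, at 34.5. With the 3004-base length *Neat1* would stand second, above *Sfpq*, in both groups.

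Other annotated genes that overlap these bear on the counting, as reads that fit more than 1 gene were not counted. *Neat1* holds 3 small annotated RNAs (Gm27533, Gm27505 and Gm28006, 384 bases in all) and *Malat1* 1 (Gm27694, 86 bases), and all 4 are listed at 0 in every library. *Sfpq* (chr4:127021324-127037013, plus strand) overlaps Gm12940 on its own strand, listed at 1.41 to 1.73 RPKM. *Rbm14* (chr19:4800569-4811634, minus strand) overlaps the read-through gene Gm21992 and the antisense gene Gm21844, both at or under 0.236 RPKM. Reads from exon bases shared with these partners would thus be missing from the *Sfpq* and *Rbm14* values, for the antisense gene only if strand was ignored. The same holds for the small RNAs within *Neat1* and *Malat1*, so the values of these, over either *Neat1* length, may be too low. *Nono* (chrX:101429318-101448591) and *Pspc1* (chr14:56720710-56778316) overlap no other gene of the table.

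Around *Malat1* and *Neat1*, 19 other annotated genes within 100 kb were examined, of which 9 passed the filter on low values and were tested. None of the 9 passed an adjusted p of 0.05 in limma, and 2 did at an unadjusted p under 0.05, beside 12.7% of all genes. *Pola2*, a subunit of the primase that starts DNA synthesis, was at 12.1, 10.8 and 11.1 RPKM with β-gal and 12.8, 12.7 and 13.7 with *Aloxe3* (log2 difference 0.18 ± 0.052 SE, adjusted p = 0.257). *Frmd8*, the nearest tested gene upstream of *Neat1*, lay in the other direction. It was at 36.9, 35.1 and 35.2 RPKM with β-gal and 34.4, 33.3 and 30.8 with *Aloxe3* (log2 difference -0.12 ± 0.049 SE, limma adjusted p = 0.373), and the difference was -0.07 ± 0.037 without replicate 9.

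The other 7 tested neighbours lay between -0.09 and 0.04 on the log2 scale, with overlapping groups. *Map3k11* (-0.01), *Ehbp1l1* (-0.09) and *Dpf2* (-0.02) were the lower ones. *Sssca1* (0.03, or 0 without replicate 9), *Ltbp3* (0.04), *Slc25a45* (0.03, or 0.07 without replicate 9) and *Cdc42ep2* (0.0024) were the higher ones. The median of the 9 was 0.0024, near that of all genes. Frmd8os, which starts 0.145 kb from *Neat1* on the other strand, was at 0.185 to 0.645 RPKM and under the filter, as were Gm16538, *Kcnk7*, *Fam89b* and *Tigd3*. Gm27702, a small RNA annotated just past the end of long *Neat1*, was listed at 0 in every library.

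**Figure D2:**
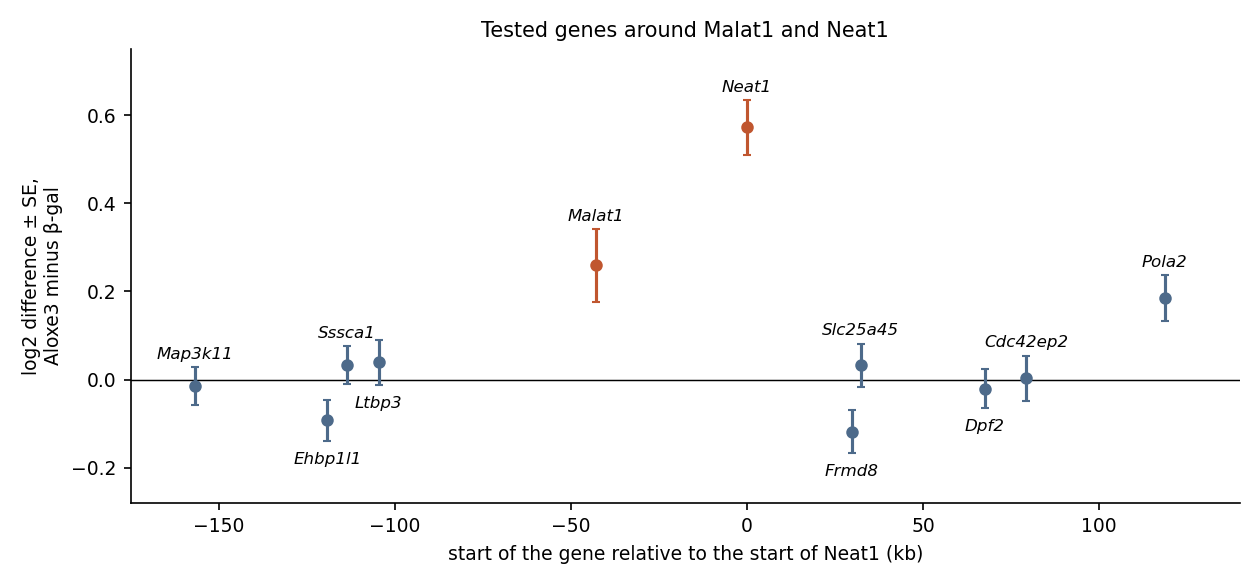
Log2 difference with SE (y axis) of *Neat1* and *Malat1* (orange) and the 9 other tested genes (blue) by the distance of the gene's start from that of *Neat1* in kb (x axis). *Neat1* (0.57) and *Malat1* (0.26) lie above the others, which range from -0.12 for *Frmd8* to 0.18 for *Pola2*.

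The other proteins found in paraspeckles were taken from a list of 28, of which 27 were tested. The mean was higher with *Aloxe3* for 20 of the 27, against 52.4% of all genes tested, and the median log2 difference was 0.03. None passed the adjusted limma threshold, and 1, *Taf15*, did at an unadjusted p under 0.05, beside 12.7% of all genes. *Taf15*, an RNA-binding protein that also joins the general transcription machinery, was at 76.8, 78.5 and 71.5 RPKM with β-gal and 81.0, 85.4 and 86.0 with *Aloxe3* (limma adjusted p = 0.269). *Hnrnpr*, an hnRNP protein and the next by p, was at 3.9996, 4.53 and 4.53 RPKM against 4.71, 4.86 and 4.70 (limma adjusted p = 0.448). For 7 of the 27 the groups did not overlap (19.9% of all genes), 6 of them with *Aloxe3* higher (11.2% of all genes).

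The proteins of the nuclear speckle, where *Malat1* resides, showed small differences in both directions. Of 29 tested genes 21 had a higher mean, the median was 0.03, and none passed the adjusted limma threshold. *Luc7l3*, a splicing factor, was at 8.43, 8.66 and 8.99 RPKM with β-gal and at 9.57, 9.90 and 11.1 with *Aloxe3* (limma adjusted p = 0.254). *Srsf7*, a serine- and arginine-rich splicing factor, was at 37.5, 36.4 and 33.4 RPKM against 32.9, 31.7 and 28.8 (limma adjusted p = 0.291). These were the 2 at an unadjusted p under 0.05, beside 12.7% of all genes.

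The enzymes that cut and finish the ends shown above were also measured. RNase P subunits, the tRNA end enzymes ELAC2 and TRNT1, and METTL16, which binds the *Malat1* triple helix, made a list of 14, all tested. Of these 8 were higher and 6 lower, with a median of 0.02, and none passed the adjusted limma threshold. At an unadjusted p under 0.05 were 3 of the 14, beside 12.7% of all genes, and in these 3 the *Aloxe3* libraries all lay below the controls, beside groups that did not overlap in either direction in 19.9% of all genes. All 3 encode subunits of RNase P, as most of the list does. *Rpp25l* was at 12.1, 13.3 and 13.7 RPKM with β-gal and 11.7, 11.8 and 11.8 with *Aloxe3* (limma adjusted p = 0.321). *Pop1* was at 8.44, 8.19 and 7.78 RPKM against 7.61, 6.92 and 7.47 (limma adjusted p = 0.334). *Pop5* was at 10.9, 11.4 and 10.4 RPKM against 9.68, 10.3 and 9.77 (limma adjusted p = 0.335).

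Transcription of *Neat1* is known to respond to p53, hypoxia and heat shock factors, among others. The list of 8 such genes, which includes the p53 targets *Cdkn1a* and *Mdm2* as a readout of p53, had a median log2 difference of 0.12, with 7 of 8 means higher and 6 of 8 groups parted with *Aloxe3* higher, beside 11.2% of all genes. None passed the adjusted limma threshold, and 4 did at an unadjusted p under 0.05, beside 12.7% of all genes. The list was written with earlier results of these data known, so nothing is read from these counts. The part of these factors in the *Neat1* level was not tested. *Cdkn1a*, which encodes the cell cycle inhibitor p21, came closest. It was at 82.3, 84.2 and 81.4 RPKM with β-gal and 91.5, 96.6 and 96.3 with *Aloxe3* (log2 difference 0.20 ± 0.036 SE, limma adjusted p = 0.0993). *Mdm2*, the ubiquitin ligase that holds p53 in check, was at 42.5, 42.0 and 43.2 RPKM against 45.5, 49.8 and 45.5 (log2 difference 0.14, or 0.09 without replicate 8, limma adjusted p = 0.291). *Brca1*, a DNA repair gene, was at 1.395, 1.221 and 1.3195 RPKM against 1.589, 1.5999 and 1.6096 (log2 difference 0.17, limma adjusted p = 0.296). *Epas1*, a hypoxia-inducible factor, was at 11.8, 11.3 and 12.5 RPKM against 13.96, 12.3 and 13.6 (log2 difference 0.15, limma adjusted p = 0.351), with overlapping groups. *Trp53* itself was at 52.3, 58.2 and 57.0 RPKM against 58.5, 59.0 and 63.9, and *Hsf1*, the heat shock factor, at 34.6, 36.6 and 35.1 against 32.3, 34.1 and 35.6. *Brca1*, *Epas1*, *Trp53* and *Hsf1* fall outside the rule for named genes and were picked after their values were seen.

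Among RNAs known to be kept in the nucleus, *Mlxipl* rose. This gene encodes ChREBP, the glucose-responsive transcription factor of lipogenesis, and much of its spliced RNA stays in the nucleus in liver. *Mlxipl* was at 12.4, 13.5 and 14.5 RPKM with β-gal and 18.5, 19.6 and 21.2 with *Aloxe3*. The groups did not overlap, and the log2 difference was 0.52 ± 0.067 (SE, limma adjusted p = 0.0271). It was the 1 gene called among the 8 tested of this list, beside 0.394% of all genes, and the list median was 0.05. The call was lost when any 1 library was left out, while the log2 difference then ranged from 0.47 to 0.57. *Gcgr*, the glucagon receptor, was at 3.80, 3.91 and 4.88 RPKM against 5.11, 4.96 and 5.63 (log2 difference 0.27 ± 0.084 SE, limma adjusted p = 0.289). The speckle-associated RNAs of *Ccnl1*, *Ccnl2*, *Clk1*, *Clk4* and *Ogt* lay between -0.08 and 0.06.

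RNAs and enzymes tied to nuclear retention and A-to-I editing formed a list of 4, with a median of -0.07 and none at an unadjusted p under 0.05. *Adarb1*, an editing deaminase, differed by -0.10 ± 0.057 (log2, SE), or -0.06 without replicate 9. *Carm1*, a methyltransferase that modifies NONO, differed by -0.08 ± 0.048, and leaving out replicate 7 or β-gal replicate 1 brought it to -0.04 or -0.05.

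Of 36 other long noncoding RNA genes listed, 27 were in the table and 18 were tested. Their median was 0.0085, with 11 higher and 7 lower, and none passed the adjusted limma threshold. *Snhg20* was at 3.76, 3.67 and 4.04 RPKM with β-gal and 4.25, 4.56 and 4.19 with *Aloxe3* (limma adjusted p = 0.321). *Airn*, an imprinted antisense RNA, was at 0.727, 0.878 and 0.727 RPKM against 0.897, 1.08 and 1.05 (limma adjusted p = 0.364). These were the 2 at an unadjusted p under 0.05, beside 12.7% of all genes.

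RNAs that carry no poly(A) tail were listed as well, though most are small and their level before the selection is not known. The 12 listed summed to 14.4, 14.9 and 15.3 RPKM with β-gal and to 14.7, 14.8 and 21.7 in *Aloxe3* replicates 7, 8 and 9. The sum in replicate 9 thus stood above the rest. Of the tailless RNAs tested, *Rpph1* (7.35 RPKM against 2.23 to 4.06), *Rmrp* and *Rn7sk* were highest in replicate 9, and *Terc*, *Scarna2*, *Scarna9* and *Scarna13* were not. Replicate 9 also had the highest sum of the mitochondrially encoded genes, of which 9 of 15 had values and the other 6 were listed at 0 in every library. The 9 summed to 21408 to 22253 RPKM with β-gal, 23192 and 22937 in replicates 7 and 8, and 29113 in replicate 9. The part of this in the *Neat1* and *Malat1* values was not tested. Of the 7 tailless RNAs tested none passed the adjusted limma threshold. *Terc*, the telomerase RNA, was at 0.22, 0.437 and 0.48 RPKM against 0.556, 0.778 and 0.626 (limma adjusted p = 0.334). *Scarna2*, a small Cajal body RNA, differed by 0.18 ± 0.092 (log2, SE), or by 0.09 without β-gal replicate 1. The 9 mitochondrial genes tested were all higher, with a median of 0.24 and none past the adjusted limma threshold, and 1 of them, *mt-Rnr2*, was at an unadjusted p under 0.05 (adjusted p = 0.389, log2 difference 0.29, or 0.19 without replicate 8). *mt-Cytb* followed, at 0.24 ± 0.11 (log2, SE), or 0.11 ± 0.049 without replicate 9.

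**Figure D3:**
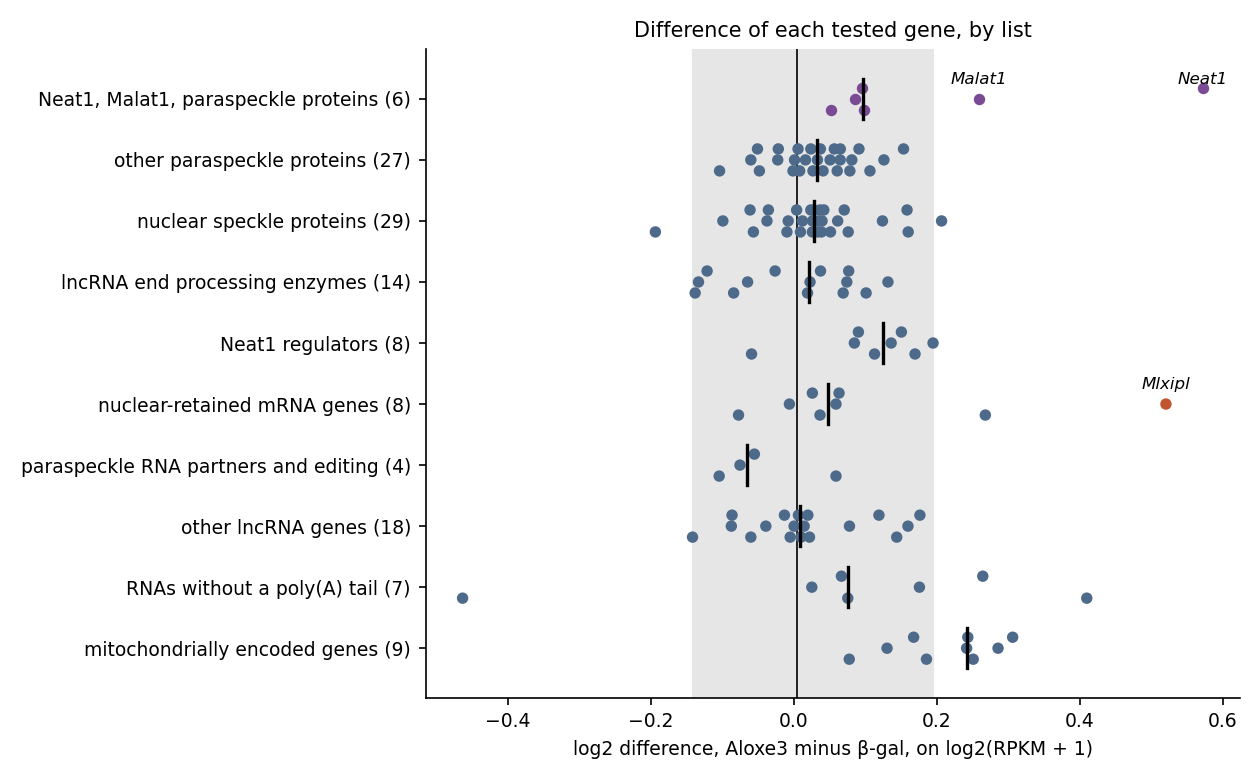
Log2 difference (x axis) of every tested gene, by list (rows, with the number tested), black ticks marking list medians, the thin line the median of all genes and the grey band their 5th to 95th percentile (-0.14 to 0.20). Purple points are the 6 genes described, chosen on these values and not coloured by the threshold. In the other lists *Mlxipl* (orange) is the 1 gene past the adjusted threshold.

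Of the 27 cell type markers tested, *Ttr*, the transthyretin carrier made by hepatocytes, was the 1 called, beside 0.394% of all genes. It fell from 119, 131 and 122 RPKM to 99.4, 101 and 101 (log2 difference -0.30 ± 0.043 SE, limma adjusted p = 0.0448). *Ttr* lost the call when any 1 library was left out, while its log2 difference then ranged from -0.33 to -0.26. *Cps1*, the urea cycle entry enzyme, was at 0.915, 0.988 and 1.05 RPKM with β-gal and 1.64, 1.29 and 1.56 with *Aloxe3* (limma adjusted p = 0.161). *Cd68*, a macrophage lysosome protein, was at 149, 147 and 149 RPKM against 129, 129 and 141 (limma adjusted p = 0.262), the reverse direction to *Neat1*. Of the 11 hepatocyte markers tested, 4 were at an unadjusted p under 0.05, 3 of them lower, beside 12.7% of all genes. The other 2 lower ones, named after their values were seen, were *Serpina1a*, a secreted protease inhibitor (53.5, 51.5 and 51.8 RPKM against 48.5, 47.9 and 48.3, limma adjusted p = 0.262), and *Apoa1*, the main protein of HDL (241, 246 and 242 RPKM against 218, 228 and 235, limma adjusted p = 0.349). Their groups did not overlap. In the lists of other cell types, the remaining genes named by the rule, *Cd5l* (-0.17), *Stab1* (-0.06), *Oit3* (-0.06), *Col1a1* (-0.04), *Dcn* (-0.02), *Krt19* (-0.15) and *Spp1* (0.11), had groups that overlapped. With 1 library left out *Cd5l* ranged from -0.28 to -0.02, *Krt19* from -0.27 to -0.02, *Oit3* from -0.13 to -0.03, *Stab1* from -0.10 to -0.02 and *Col1a1* from -0.08 to 0. The part of cell makeup in the *Neat1* and *Malat1* values was not tested.

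The genes whose pattern over the 6 libraries lay nearest to each member were found by the root mean square difference of log2(RPKM + 1), centred on each gene's mean, among the 7365 other genes whose mean reached 5 RPKM. All points share the same 6 libraries. For *Neat1* these were *Lrg1*, a secreted glycoprotein of the acute phase (0.0752), *Mlxipl* (0.0777) and *Atad2*, a chromatin ATPase (0.0866), against a size of the *Neat1* profile itself of 0.296. *Lrg1* was at 26.8, 27.2 and 27.98 RPKM with β-gal and 41.5, 39.7 and 43.4 with *Aloxe3*, so it shared the step between the groups but not the dip of *Neat1* in β-gal replicate 2.

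For *Malat1* the nearest were *Ccl3* (0.0313), *Atpif1* (0.0435) and *Ciz1* (0.0585). *Ccl3*, a chemokine, was at 12.5, 14.7 and 14.6 RPKM against 15.1, 16.9 and 17.8. None of the 3 nearest to *Malat1* was among those nearest to *Neat1*. The flat profiles of the protein genes had closer neighbours, with differences of 0.0104 to 0.0193. They were *Rpf2*, *Tnrc6b* and *Zfc3h1* for *Nono*, *Tcf7*, *Sipa1l3* and *Proser1* for *Sfpq*, *Pmvk*, *Fkbp3* and *Dis3* for *Pspc1*, and *Raver1*, *Snrpd1* and *Pop4* for *Rbm14*. *Pop4* is itself an RNase P subunit of the list above. The genes nearest to *Sfpq* and *Rbm14* shared their high value in replicate 9.

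**Figure D4:**
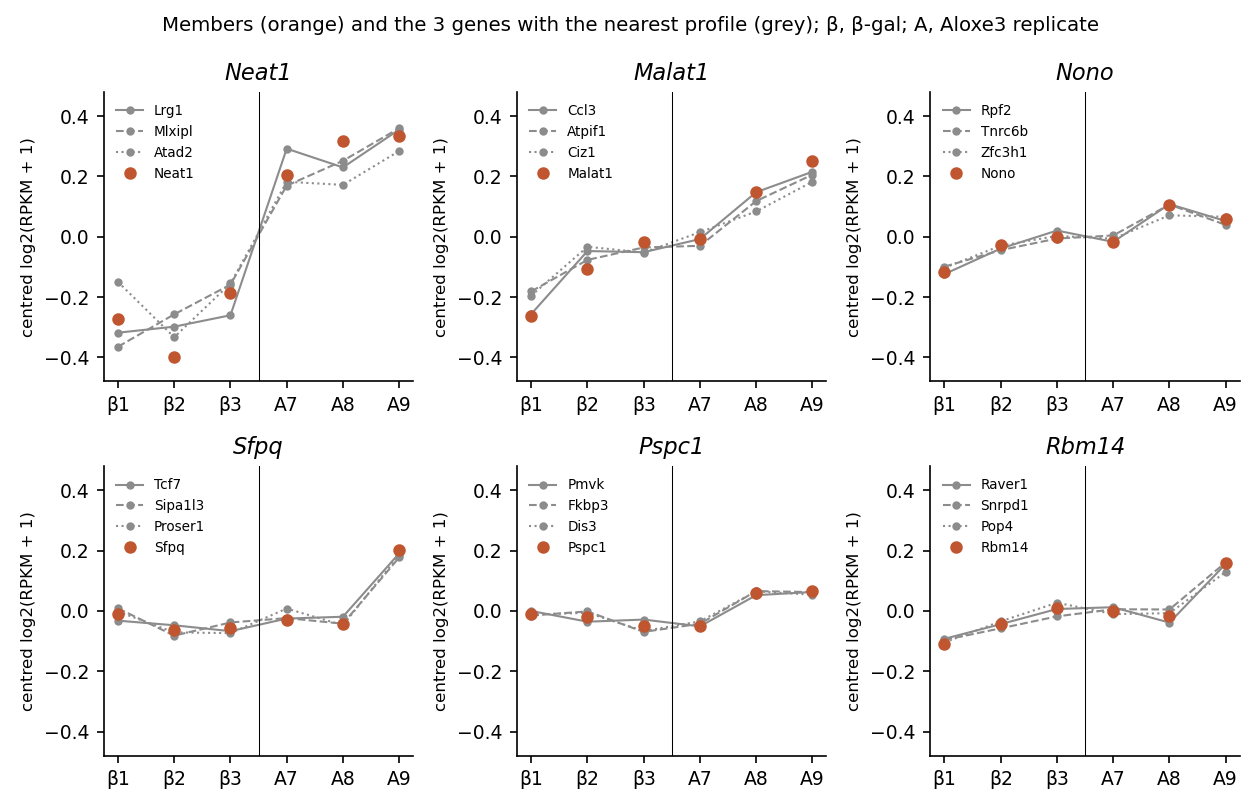
Centred log2(RPKM + 1) (y axis) of each of the 6 genes (orange points) and its 3 nearest genes (grey lines) over β-gal replicates 1 to 3 and *Aloxe3* replicates 7 to 9 (x axis). *Neat1* shows a step between the groups, while *Sfpq* and *Rbm14* stand out in replicate 9 alone.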

How the data were processed

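Total RNA (10 ug, RIN above 8.0) was selected on oligo(dT) beads and sequenced in single reads of 50 bases. The authors aligned with STAR 2.0.4b, counted unique unambiguous reads per gene with featureCounts 1.4.5 (build GRCm38.p2 in the submitters' processing notes) and deposited RPKM values. Strand use in counting is not given in the sources used here. Reads and library sizes were derived from the whole-number steps of the RPKM (tolerance 0.02); for *Pspc1* they are known up to a common factor (smallest length 4003 bases). Symbols and coordinates are those of GENCODE M21, which matched 40340 of 41388 identifiers.

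Genes whose mean reached 0.5 RPKM were tested on log2(RPKM + 1) with lmFit and a trended eBayes of limma 3.58.1 (R 4.3.3; Benjamini-Hochberg adjustment), 3 libraries against 3, with no batch term as all came from 1 run. The script was tested on simulated data: of genes changed 1.5-fold in the comparison of *Aloxe3* with β-gal, it recovered 37 of 50, and of those changed 1.25-fold 15 of 47, with 8 unchanged genes called (12681 genes tested). The simulated spread between replicates was the same for every gene (dispersion 0.003), and no simulated library stood apart as replicate 9 did. Recovery in the measured libraries may thus be lower. The pseudocount makes fold changes of low genes look smaller.

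The members and lists were chosen with earlier results of these data known. Named were the 6 genes and *Aloxe3*, list genes past the threshold and the 2 with the smallest p in each list, annotated genes within 100 kb of *Neat1* or *Malat1*, and the 3 genes nearest in profile to each member; *Alb* and other list genes were added as examples. Results of some genes of these lists and regions are not reported here, and the counts leave them out. Alternatives changed the pseudocount, filter, scaling and test or left out 1 library.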

Additional observations from a re-analysis of the deposited data

How the results depend on the processing

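*Neat1*, *Malat1* and the 4 protein genes kept a higher mean with *Aloxe3* under all 14 alternatives. The log2 difference ranged from 0.52 to 0.62 for *Neat1*, 0.19 to 0.33 for *Malat1*, 0.06 to 0.13 for *Nono*, 0.01 to 0.13 for *Sfpq*, 0.03 to 0.09 for *Pspc1* and 0.04 to 0.13 for *Rbm14*. The number of genes called over all genes was 7 with no filter and 174 with voom on derived reads, against 50, and 6 to 19 with 1 library left out. Of the 6 members, 0 were called with no filter, 0 without any library other than β-gal replicate 3, and 1 (*Neat1*) without that one. Of the list genes, 0 were called with no filter, 0 with eBayes without trend, 3 with voom (*Mlxipl*, *Cdkn1a*, *Kcnq1ot1*) and 0 with any library left out. Of the marker genes, 0 were called with no filter, 0 with quantile normalization, 0 with eBayes without trend, 2 with voom (*Ttr*, *Cps1*) and 0 with any library left out. The cause was not tested, but a fit with 1 library fewer has fewer samples and one with no filter adjusts over more genes. Small differences changed sign: *Cdc42ep2* (-0.01) after rescaling to the same median, the same gene (-0.03) after quantile normalization, and the range with 1 library left out spanned 0 for *Dcn* (-0.10 to 0.05), *Map3k11* (-0.04 to 0.02), *Ltbp3* (-0.00 to 0.08), *Slc25a45* (-0.01 to 0.07), *Dpf2* (-0.05 to 0.00) and *Cdc42ep2* (-0.02 to 0.04). No scaling moved the median of all genes by more than 0.1. No paired analysis was possible because the groups share no replicate number. One read on 1 kb is worth 0.0308 to 0.0392 RPKM, and counting error was at or above the replicate spread for *Pspc1* with β-gal.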
